A study of Mus musculus with 6 samples.

Results

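The 10 genes described here are the 3 HIF prolyl hydroxylases (Egln1, Egln2 and Egln3), the HIF asparaginyl hydroxylase Hif1an, the VHL ubiquitin ligase subunit Vhl, the HIF subunits Hif1a, Epas1 and Arnt, and the HIF targets Vegfa and Bnip3. They were taken from the 24469 loci of the expression table by their gene symbols, and each of the 10 symbols was carried by 1 locus. The set was chosen by the FPKM values of these same libraries, above all the level of Egln1 with rFGF1WT against rFGF1ΔHBS, and by the genes' known roles. Libraries were made from differentiated MPC cells, a conditionally immortalized mouse podocyte line at passage 10 to 15, in 3 groups of 2. Cells grew at 33 °C with interferon gamma and were differentiated for 10 days at 37 °C without it, then were kept without serum for 12 h and in 25 mM glucose for 12 h. The labels also name D-mannitol for osmotic control, but none of the 6 libraries is labelled as such a control. The HG group had no pretreatment, the rFGF1WT group had 100 ng/mL of wild-type FGF1 for 1 h before the glucose, and the rFGF1ΔHBS group had the same dose and time of the FGF1 variant with reduced heparan sulfate binding. All 6 libraries were thus from high-glucose cells of 1 line. No source says that the 2 libraries of a group came from separate cultures, so the p-values measure only the spread between these libraries, which may be technical.

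Hypoxia-inducible factors pair an alpha subunit (HIF-1α from Hif1a, HIF-2α from Epas1) with the beta subunit from Arnt. When oxygen is present, the EGLN enzymes, also called PHDs, hydroxylate prolines of the alpha subunit, VHL then binds it and marks it for the proteasome, while HIF1AN (FIH) hydroxylates an asparagine and blocks coactivator binding. In podocytes the pathway is best known for VEGF-A, which these cells supply to the glomerular endothelium. Most of this control acts on proteins, whereas the libraries measured mRNA, as FPKM (fragments per kilobase of transcript, scaled to the mapped fragments of the library).

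The HIF complex binds the core letters ACGTG, or CACGT on the other strand, in the hypoxia response elements of its targets. Promoter windows of RefSeq on GRCm38.p6, each 250 bases before to 50 bases after a gene start, were given for 9 of the 10 genes in 11 windows, with none for Epas1. ACGTG occurred on either strand in 6 of the 11 windows, of Egln1, Egln2, Egln3, Hif1a, Vegfa and Bnip3. It occurred in 19.6% of all 32851 windows, and in 48.6% of 72 windows of the HIF target genes listed below. The 10 genes were chosen in part for their known roles, so their count is not read against all windows. The 1 window each of Arnt, Vhl and Hif1an, and a further one each of Egln2 and Vegfa, held no such letters. The windows of Egln1 and Bnip3 are printed because these genes carried the changes given below, and that of Egln2 as the most abundant paralog. Each run ends at most 30 bases inside the outermost annotated start, lies on the minus strand and reads 5′ to 3′, with ACGTG or CACGT in capitals.
Egln1, chr8:124949295-124949504: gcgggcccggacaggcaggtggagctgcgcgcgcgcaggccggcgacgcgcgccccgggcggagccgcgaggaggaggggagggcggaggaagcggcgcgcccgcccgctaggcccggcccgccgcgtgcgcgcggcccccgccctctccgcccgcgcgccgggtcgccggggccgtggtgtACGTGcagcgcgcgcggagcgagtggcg
Egln2, chr7:27166773-27167052: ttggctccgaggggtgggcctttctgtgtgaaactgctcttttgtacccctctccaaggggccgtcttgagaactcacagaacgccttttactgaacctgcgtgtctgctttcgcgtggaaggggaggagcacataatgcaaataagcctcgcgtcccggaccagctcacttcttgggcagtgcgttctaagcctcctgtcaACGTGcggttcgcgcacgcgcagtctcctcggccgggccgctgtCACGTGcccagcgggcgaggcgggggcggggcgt
Bnip3, chr7:138909490-138909756: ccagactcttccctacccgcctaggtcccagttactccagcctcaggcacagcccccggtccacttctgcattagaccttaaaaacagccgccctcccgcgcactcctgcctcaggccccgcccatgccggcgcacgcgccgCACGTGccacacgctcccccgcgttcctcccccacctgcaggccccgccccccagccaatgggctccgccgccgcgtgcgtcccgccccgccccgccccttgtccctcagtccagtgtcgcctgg
The Egln1 match starts 68 bases before the RefSeq start. GENCODE places that start 70 bases farther upstream, so by GENCODE the match lies inside the first exon. In Bnip3 the matches of both strands overlap in CACGTG, which starts 108 bases before the RefSeq start, and the Egln2 window holds both a single match and such an overlapping pair. These matches are letters in a window only, and binding was not measured.

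FPKM summed to between 179594 and 185168 per library, and median-ratio factors between libraries ran from 0.991 to 1.03. The sum of 10 genes used by every cell was 2770 to 2943 FPKM in HG, 3460 to 3489 with rFGF1WT and 3129 to 3540 with rFGF1ΔHBS, and 1 of them, Actb, passed the limma test with rFGF1WT (log2 0.86, adjusted p = 0.0450). The table holds no counts. The steps between low values of single-transcript loci implied between about 22300000 and 23200000 fragments per library, although only 36.7% to 39.3% of those low values lay within 0.02 fragments of a whole number, so the depth is an estimate. At that depth Egln1 rested on about 681 to 1519 fragments per library, Egln3 on 352 to 431, and Epas1 on 62 to 89. Of 17 podocyte markers looked up, 8 had a mean of at least 1 FPKM. Wt1 was almost absent (mean 0.0376 FPKM) and nephrin was low (Nphs1, 0.781), whereas Synpo (6.82), Podxl (16.04), Cd2ap (60.7) and Actn4 (96.6) were expressed. Of 8 tubular markers, only 2 had a mean of at least 1, Lrp2 (24.5) and Aqp1 (28.3). Slc34a1 and Umod had no locus. Defining endothelial markers (Pecam1, 0.0386; Cdh5, 0.0454) and the leukocyte marker Ptprc (0.0275) were near 0, and 1 of 8 endothelial markers, Ehd3, had a mean of at least 1. Of the mesangial markers 3 of 6 did, Pdgfrb (28.6), Acta2 (14.5) and Gata3 (2.70). The macrophage gene Cd68 shares its row with the translation factor gene Eif4a1, from which it cannot be told apart. That row, the only 1 of the immune list above the filter, was higher with rFGF1WT (log2 0.32, limma adjusted p = 0.0496) and with rFGF1ΔHBS (0.37, adjusted p = 0.0363). The label of a podocyte line therefore had only part of its markers behind it. The summed podocyte markers moved with treatment, from 253 to 261 FPKM in HG to 350 to 356 with rFGF1WT and 338 to 352 with rFGF1ΔHBS, and the summed tubular markers ran from 62.0 to 73.7, 44.3 to 47.9 and 40.8 to 50.1 in the same order. Actn4 and Nes, the most abundant, weigh most in the podocyte sum. Nes rose with rFGF1WT (log2 0.89, limma adjusted p = 0.00576) and with rFGF1ΔHBS (0.97, adjusted p = 0.00510). Of the 8 tested podocyte markers, 6 were higher and 2 lower in each comparison with HG. The immune list ran from 50.3 to 53.3, 63.3 to 66.5 and 67.3 to 67.4, the mesangial list from 45.1 to 47.8, 46.1 to 48.2 and 43.4 to 45.2, and the endothelial list from 3.34 to 3.58, 1.21 to 3.04 and 2.97 to 3.05. Their part in the results below was not tested.

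Over all 6 libraries, Egln2 had the highest mean FPKM of the 10 genes (23.5), followed by the Hif1a locus (18.2), Arnt (13.9), Vhl (13.8), Egln1 (11.8), Bnip3 (8.46), Egln3 (6.32), Vegfa (5.25), Hif1an (4.03) and Epas1 (0.622). Egln2 stood above the Hif1a locus, and the Hif1a locus above Arnt, in 6 of 6 libraries. Arnt and Vhl could not be ordered, since Arnt was higher in 4 of 6. Egln1 was above Bnip3 in 4 of 6 and below Vhl in 4 of 6, and both orders followed the group. It was under Vhl with HG and rFGF1ΔHBS and over it with rFGF1WT. Against Bnip3 it was under with HG and over with either protein. With rFGF1ΔHBS, Egln1 stood at 1.05 times its HG level and Bnip3 at 0.714 times. Vegfa exceeded Hif1an in 5 of 6. HIF-2α transcripts were scarce, the Hif1a locus being 26.4 to 36.2 times the FPKM of Epas1. That locus merges Hif1a with Snapc1, so the ratio is not of Hif1a alone, and Epas1 rested on few fragments.

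**Figure D1:**
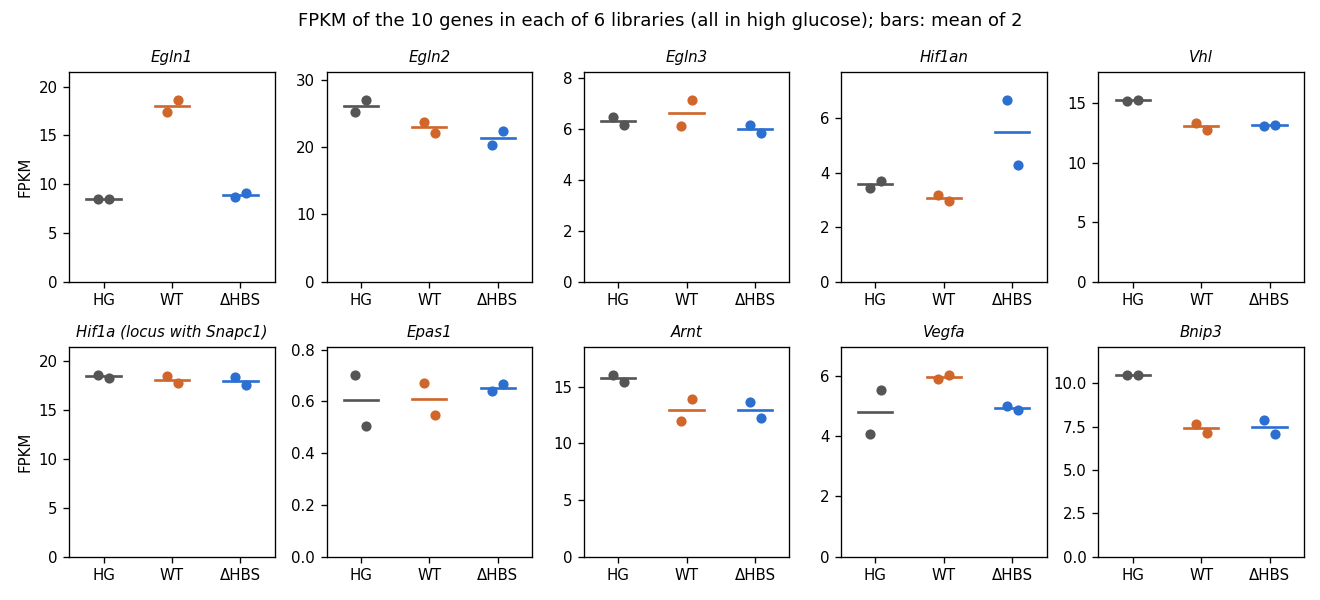
FPKM (vertical axes, each from 0) of the 10 genes in each of the 6 libraries, by group (horizontal axis: HG, rFGF1WT, rFGF1ΔHBS); points are libraries and bars the mean of 2. The Egln1 points with rFGF1WT (17.4 and 18.7) stand apart from the other 4 (8.45 to 9.08), Bnip3 is lower in all 4 FGF1 libraries, and Hif1a stays between 17.6 and 18.7.

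The first question was whether either form of FGF1 moved these genes in high glucose. With rFGF1WT, Egln1 rose to 2.13 times its HG level and Bnip3 fell to 0.707 times, and the other 7 tested genes did not pass the test. With rFGF1ΔHBS none passed, although Bnip3 stood at 0.714 times its HG level and missed the threshold narrowly. In RNA of whole cultures, fewer cells expressing a gene and less of its RNA per cell cannot be told apart. The test was limma on log2(FPKM + 1) in 1 fit of the 6 libraries, with Benjamini-Hochberg adjusted p over the 10562 loci of mean FPKM of at least 1 and a threshold of 0.05. It took in 9 of the 10 genes, Epas1 being under the filter. With rFGF1WT, 2 of the 9 passed, 1 higher and 1 lower, against 6.19% of all loci tested, 3.26% higher and 2.94% lower. The 1 higher was Egln1, whose level with rFGF1WT chose the set, so this count is not read against that share. With rFGF1ΔHBS, 0 of 9 passed against 6.26%. In each comparison 4 of the 9 had an unadjusted p under 0.05, as did 24.8% of all loci with rFGF1WT and 24.9% with rFGF1ΔHBS. A second rule also asked for a change of at least 2-fold on the log2(FPKM + 1) scale. By that rule 1 passed with rFGF1WT (1.01% of all loci), 0 with rFGF1ΔHBS (0.899%) and 0 between the proteins (0.35%). Egln1 with rFGF1ΔHBS was 0.493 times its level with rFGF1WT in FPKM. Its log2 difference on the rule's scale was -0.94, short of the limit. The 1 with rFGF1WT was Egln1 again. The median log2 change of the 9 genes was -0.17 with rFGF1WT and -0.06 with rFGF1ΔHBS, beside -0.04 in both comparisons over all loci. Both comparisons share the 2 HG libraries, so their values are given side by side and are not independent of each other.

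**Figure D2:**
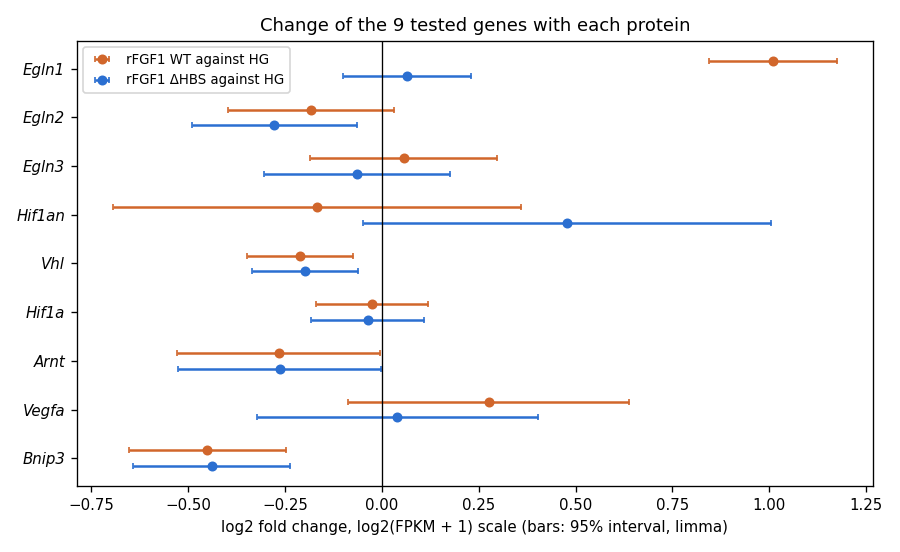
Log2 fold change against HG on the log2(FPKM + 1) scale (horizontal axis) of the 9 tested genes (vertical axis) with rFGF1WT and rFGF1ΔHBS; points are estimates and bars 95% intervals from limma, not adjusted for many loci. Egln1 is at 1.01 with rFGF1WT and 0.06 with rFGF1ΔHBS, and Bnip3 lies at -0.45 and -0.44.

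Egln1 encodes PHD2, the main oxygen-sensing hydroxylase acting on HIF-1α (ENSMUSG00000031987, GRCm38 chr8:124908587-124949324, minus strand, 1 transcript of 5 exons). It measured 8.45 and 8.46 FPKM in HG, 17.4 and 18.7 with rFGF1WT, and 8.69 and 9.08 with rFGF1ΔHBS. Both rFGF1WT libraries lay far above the other 4, and both rFGF1ΔHBS libraries lay slightly above both HG libraries. Group means were 8.45 ± 0.00881 in HG, 18.0 ± 0.909 with rFGF1WT and 8.89 ± 0.272 with rFGF1ΔHBS (SD, n = 2 each). The closeness of the HG pair was under the counting error of 3.79% and 3.83% that the estimated fragments allow, so it cannot be read as precision.

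The log2 change of Egln1 with rFGF1WT against HG was 1.01 (SE 0.06, limma adjusted p = 0.00900). Its adjusted p was 0.0545 without HG replicate 1. The rFGF1WT libraries are also those of the contrast by which Egln1 was known, so this p is not independent evidence. With rFGF1ΔHBS against HG the log2 change was 0.06 (adjusted p = 0.569, 95% interval -0.10 to 0.23), which does not show that the level was the same. Between the proteins, Egln1 with rFGF1ΔHBS was 0.493 times its level with rFGF1WT, a log2 difference of -0.94 with an interval of -1.11 to -0.78. That difference chose the gene, so no p-value is given for it as support. In the same comparison 0.549% of all loci passed adjusted p 0.05, and Egln1 was the 1 member among them, a count from which nothing is read.

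The coding gene next to Egln1 moved the other way. Sprtn, which encodes a protease that removes DNA-protein crosslinks, lies at chr8:124897886-124906161 on the plus strand and ends 2426 bp from the 3′ end of Egln1, the pair being convergent. It measured 6.48 and 6.58 FPKM in HG, 2.29 and 1.63 with rFGF1WT, and 6.71 and 6.45 with rFGF1ΔHBS. So both rFGF1WT libraries were below the other 4, the mirror image of Egln1. Its log2 change was -1.36 with rFGF1WT (adjusted p = 0.0168) and 0.01 with rFGF1ΔHBS (adjusted p = 0.979), and between the proteins it was 1.37 (adjusted p = 0.0468). The first call was lost without either HG or either rFGF1ΔHBS library (adjusted p up to 0.0833), in the fit of the 4 libraries compared (adjusted p = 0.0553) and with the replicate block (adjusted p = 0.0665), and the last in 10 of the alternatives (adjusted p up to 0.176). No source states that fragments were counted by strand. The part of Sprtn in the Egln1 result was not tested, and the gene was looked up after its values were seen. The other coding loci with a row in the table within 100 kb did not pass the test in any comparison. These were the merged Trim67;Gnpat locus, 2810004N23Rik and Tsnax, the last of which reached 21.4 FPKM in rFGF1ΔHBS replicate 1 against 7.32 to 8.84 in the other 5 libraries.

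**Figure D3:**
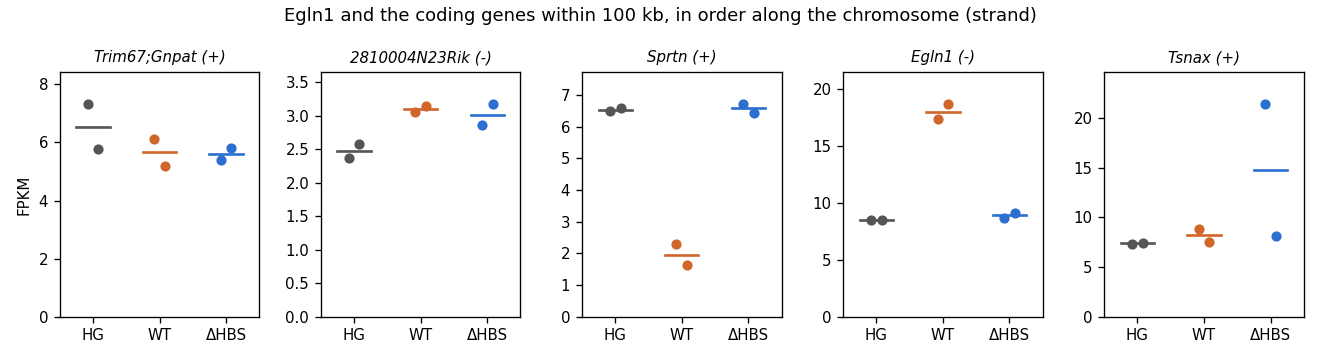
FPKM (vertical axes, each from 0) of Egln1 and of the coding loci within 100 kb that have a row in the table, in chromosomal order with the strand in brackets, by group (horizontal axis); points are libraries and bars the mean of 2. With rFGF1WT, Egln1 is at 17.4 and 18.7 while Sprtn is at 2.29 and 1.63; in the other 4 libraries Sprtn lies between 6.45 and 6.71.

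Of 6442 loci compared, those whose FPKM followed Egln1 most closely over the 6 libraries included Mrpl54 (Pearson r 0.990), Arl8a (0.988), Tmem55a (0.983) and Cggbp1 (0.979). Mrpl54 encodes a mitochondrial ribosomal protein. The libraries share 3 group means, and loci were picked for this likeness, so the correlations are a description only. Mrpl54 measured 15.2 and 15.6 FPKM in HG, 40.7 and 36.4 with rFGF1WT, and 16.4 and 16.9 with rFGF1ΔHBS.

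Egln2 encodes PHD1, a largely nuclear paralog (chr7:27158658-27166802, minus strand). Its FPKM was 25.2 and 27.01 in HG, 23.8 and 22.0 with rFGF1WT, and 20.4 and 22.4 with rFGF1ΔHBS. Every FGF1 library was below both HG libraries, and the 2 proteins overlapped. The log2 change was -0.18 with rFGF1WT (adjusted p = 0.257) and -0.28 with rFGF1ΔHBS (adjusted p = 0.130), and neither passed.

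Egln3 encodes PHD3, itself a known HIF target (chr12:54178981-54203860, minus strand, 1 transcript). It stood at 6.46 and 6.17 FPKM in HG, 6.11 and 7.15 with rFGF1WT, and 6.15 and 5.85 with rFGF1ΔHBS. The rFGF1WT libraries spanned those of HG, while the rFGF1ΔHBS pair lay just under them. Its log2 change was 0.06 with rFGF1WT (adjusted p = 0.736, 95% interval -0.18 to 0.30) and -0.06 with rFGF1ΔHBS (adjusted p = 0.702, interval -0.31 to 0.18).

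Because FPKM is scaled to length, the 3 enzymes' levels can be added. Their sum was 40.1 and 41.6 FPKM in HG, 47.3 and 47.8 with rFGF1WT, and 35.2 and 37.4 with rFGF1ΔHBS. Egln1 made up 21.1% and 20.3% of it in HG, 36.8% and 39.0% with rFGF1WT, and 24.7% and 24.3% with rFGF1ΔHBS. Egln2 remained the largest part in each library, from 46.0% to 64.9%, and Egln3 the smallest, from 12.9% to 17.5%. The shift of the sum with rFGF1WT therefore lay in Egln1, while Egln2 was lower in both FGF1 groups.

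**Figure D4:**
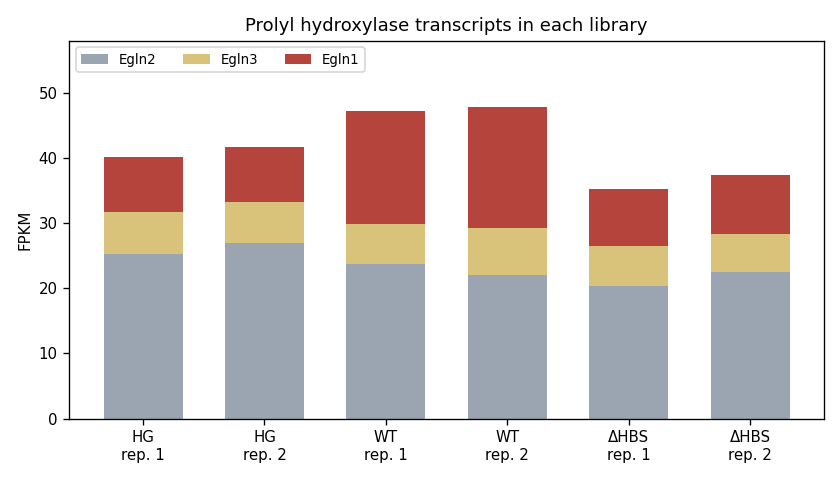
FPKM of Egln2, Egln3 and Egln1, stacked from 0 (vertical axis), in each of the 6 libraries (horizontal axis). The stack reaches 47.3 and 47.8 with rFGF1WT, where Egln1 is 36.8% and 39.0% of it, against 35.2 to 41.6 in the other 4 libraries.

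Hif1an encodes the asparaginyl hydroxylase FIH (chr19:44562850-44576274, plus strand). It measured 3.45 and 3.68 FPKM in HG, 3.18 and 2.95 with rFGF1WT, and 6.67 and 4.27 with rFGF1ΔHBS. The rFGF1ΔHBS libraries were the highest pair but also the most uneven, and both rFGF1WT libraries were below HG. The log2 change of Hif1an was -0.17 with rFGF1WT (adjusted p = 0.643) and 0.48 with rFGF1ΔHBS (adjusted p = 0.234). Between the proteins it was 0.65 (SE 0.20, limma adjusted p = 0.905). This difference did not pass, and rFGF1ΔHBS replicate 1 carried much of it: without that library it was 0.38, and without rFGF1ΔHBS replicate 2 it was 0.92.

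Vhl encodes the subunit that recognizes hydroxylated HIF (chr6:113623959-113631633, plus strand). It was at 15.2 and 15.3 FPKM in HG, 13.3 and 12.8 with rFGF1WT, and 13.1 and 13.2 with rFGF1ΔHBS. The 4 FGF1 libraries were close together and all under HG. The log2 change of Vhl was -0.21 with rFGF1WT (SE 0.05, adjusted p = 0.0995) and -0.20 with rFGF1ΔHBS (adjusted p = 0.105), short of the threshold.

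Hif1a lies on GRCm38 at chr12:73901375-73947530, plus strand. In the deposited table it shares a row of 13 transcripts with the neighbouring Snapc1, 5 of them from Hif1a, so the genes cannot be told apart in this value. The locus measured 18.7 and 18.3 FPKM in HG, 18.5 and 17.8 with rFGF1WT, and 18.4 and 17.6 with rFGF1ΔHBS. All 3 groups overlapped. The log2 change was -0.02 with rFGF1WT (adjusted p = 0.812, 95% interval -0.17 to 0.12) and -0.04 with rFGF1ΔHBS (adjusted p = 0.719, interval -0.18 to 0.11), and the direction of the first turned under another scaling.

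Epas1 (chr17:86753700-86833410, plus strand) was listed at 0.704 and 0.505 FPKM in HG, 0.670 and 0.550 with rFGF1WT, and 0.639 and 0.666 with rFGF1ΔHBS. The groups overlapped. With no filter on low values the adjusted p was 1 with rFGF1WT and 0.889 with rFGF1ΔHBS.

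Arnt encodes HIF-1β, also the partner of the aryl hydrocarbon receptor (chr3:95434388-95497240, plus strand). Its FPKM was 16.1 and 15.4 in HG, 12.0 and 13.9 with rFGF1WT, and 13.7 and 12.2 with rFGF1ΔHBS. All 4 FGF1 libraries were below both HG libraries, with spread inside each pair. Arnt had a log2 change of -0.27 with rFGF1WT (SE 0.10, adjusted p = 0.195) and -0.26 with rFGF1ΔHBS (adjusted p = 0.198).

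Vegfa, the angiogenic growth factor of the podocyte, lies at chr17:46016993-46032369 on the minus strand. It measured 4.09 and 5.55 FPKM in HG, 5.92 and 6.06 with rFGF1WT, and 4.998 and 4.874 with rFGF1ΔHBS. The rFGF1WT libraries were the highest pair, and the rFGF1ΔHBS libraries fell between the 2 unequal HG values. For Vegfa the log2 change was 0.28 with rFGF1WT (adjusted p = 0.301), 0.04 with rFGF1ΔHBS (adjusted p = 0.892) and -0.24 between the proteins (adjusted p = 0.905). The first value was 0.09 without HG replicate 1 and 0.46 without HG replicate 2.

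Bnip3 encodes a mitochondrial BH3-like protein that serves as a mitophagy receptor and is a classical HIF-1 target (chr7:138890836-138909519, minus strand). It stood at 10.5 and 10.5 FPKM in HG, 7.68 and 7.15 with rFGF1WT, and 7.90 and 7.08 with rFGF1ΔHBS. The 4 FGF1 libraries were all below HG and overlapped each other. Means were 10.5 ± 0.0298 in HG, 7.42 ± 0.373 with rFGF1WT and 7.49 ± 0.579 with rFGF1ΔHBS (SD, n = 2 each). The log2 change was -0.45 with rFGF1WT (SE 0.08, adjusted p = 0.0496) and -0.44 with rFGF1ΔHBS (adjusted p = 0.0514). The call with rFGF1WT was lost in 13 of 17 alternatives, among them leaving out any 1 of the 6 libraries, with adjusted p up to 0.168. Between the proteins Bnip3 differed by 0.01 on the log2 scale (adjusted p = 1, 95% interval -0.19 to 0.21). The antisense gene Gm45507 and the pseudogene Gm18258 overlap Bnip3 on the other strand. No source states that counting used strand, without which reads of overlapping genes cannot be told apart. Gm18258 has a row of its own, listed at 0 to 0.0821 FPKM.

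Egln2, Vhl, Arnt and Bnip3 thus had all 4 FGF1 libraries below both HG libraries, which 25.5% of all loci tested also did. Egln1 was the 1 member with all 4 above, against 17.1% of all loci. Neither count sets the members apart from the table.

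Genes that act with these members were taken from lists, also chosen with earlier results known. Of 18 listed genes of the HIF degradation machinery, 16 were tested and 1 passed in each comparison with HG (6.25%, beside 6.19% and 6.26% of all loci). This was Os9, a lectin reported to bind HIF-1α and the prolyl hydroxylases, at 32.3 and 33.0 FPKM in HG, 24.5 and 25.3 with rFGF1WT, and 23.4 and 23.8 with rFGF1ΔHBS. Its log2 change was -0.38 with rFGF1WT (adjusted p = 0.0276) and -0.45 with rFGF1ΔHBS (adjusted p = 0.0213). The chaperone genes Hsp90ab1 and Hsp90aa1, the most abundant of the list, did not pass. None of the 11 tested of 16 listed HIF partners and coactivators passed in any comparison, the most abundant being Pkm (merged with AC160637.1) and Cited2. Between the proteins no gene of either list passed, beside 0.549% of all loci.

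Of 63 listed HIF target genes other than the members, 53 were tested. With rFGF1WT, 7 passed (13.2%), 5 higher and 2 lower, and with rFGF1ΔHBS 6 passed (11.3%), 4 higher and 2 lower, beside the 6.19% and 6.26% of all loci. With rFGF1ΔHBS, 3.37% of all loci passed higher and 2.89% lower. The median log2 change of the 53 was 0.07 and 0.05. Bhlhe40, a transcriptional repressor of the circadian and hypoxic response, rose from 12.0 and 10.9 FPKM in HG to 23.8 and 22.7 with rFGF1WT (log2 0.96, adjusted p = 0.0114) and to 21.7 and 21.8 with rFGF1ΔHBS (0.87, adjusted p = 0.0140). Ddit4, an inhibitor of mTORC1, rose by a log2 change of 0.62 (adjusted p = 0.0480) and 0.73 (adjusted p = 0.0348). Anxa2, a membrane-binding annexin, rose by 0.44 in both (adjusted p = 0.0225 and 0.0226). Zfp395 changed by -0.71 (adjusted p = 0.0130) and -0.67 (adjusted p = 0.0152), and P4ha2, a collagen prolyl hydroxylase, by -0.57 (adjusted p = 0.0323) and -0.50 (adjusted p = 0.0413).

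Hilpda, which encodes a lipid droplet protein that inhibits triglyceride breakdown, passed with rFGF1WT alone. It measured 0.678 and 0.522 FPKM in HG, 3.35 and 2.73 with rFGF1WT, and 0.787 and 0.615 with rFGF1ΔHBS. Both rFGF1WT libraries were above the other 4, the same order of groups as for Egln1. Group means were 0.600 in HG, 3.04 with rFGF1WT and 0.701 with rFGF1ΔHBS. Hilpda thus cleared the filter of 1 FPKM only through the group where it was high, so its call is not independent of that filter. The count of HIF targets that passed with rFGF1WT includes it. Its log2 change was 1.33 with rFGF1WT (SE 0.13, adjusted p = 0.0181) and 0.09 with rFGF1ΔHBS (adjusted p = 0.719). The difference between the proteins was -1.25 and did not pass (adjusted p = 0.0685). The call with rFGF1WT was lost when any 1 of the 6 libraries was left out (adjusted p up to 0.0714). The glycolytic genes Pgam1 and Aldoa, the most abundant of the list, did not pass, and Pgam1 was at 271 FPKM in HG replicate 1 and 320 in rFGF1ΔHBS replicate 1 against 104 to 132 in the other 4 libraries.

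Among 9 listed VEGF ligands and receptors other than Vegfa, 4 were tested. Of these, 2 passed with rFGF1WT (50%) and 1 with rFGF1ΔHBS (25%), beside 6.19% and 6.26% of all loci. A list of 4 is too small for its share to be read. Nrp1, a VEGF and semaphorin co-receptor, rose from 9.06 and 9.84 FPKM in HG to 18.2 and 20.2 with rFGF1WT (log2 0.95, adjusted p = 0.0172) and to 20.2 and 18.3 with rFGF1ΔHBS (0.96, adjusted p = 0.0179). Vegfd, a lymphangiogenic ligand, measured 6.49 and 5.71 in HG, 2.86 and 2.96 with rFGF1WT, and 3.54 and 4.09 with rFGF1ΔHBS. It passed with rFGF1WT (log2 -0.86, adjusted p = 0.0234) and narrowly missed with rFGF1ΔHBS (-0.56, adjusted p = 0.0526), and its difference between the proteins did not pass (adjusted p = 0.905). Vegfb and Nrp2, the most abundant, did not pass. Kdr, the main VEGF-A receptor of endothelium, was near 0 (mean 0.00684 FPKM).

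None of the 16 tested of 18 BNIP3-related and mitophagy genes passed in any comparison, with Gabarap and Sqstm1 the most abundant. Of all loci, 6.19% and 6.26% passed against HG and 0.549% between the proteins. The median log2 change of the 16 genes was -0.11 with rFGF1WT and -0.19 with rFGF1ΔHBS. Of 24 other 2-oxoglutarate-dependent hydroxylases and demethylases, 21 were tested and 1 passed with each protein (4.76%, below the 6.19% and 6.26% of all loci). This was Riox2, a histidyl hydroxylase of a ribosomal protein, at 3.63 and 3.73 FPKM in HG, 5.96 and 5.86 with rFGF1WT, and 5.61 and 5.55 with rFGF1ΔHBS (log2 0.56 and 0.49, adjusted p = 0.0192 and 0.0238). P4hb and Alkbh5, the most abundant of that list, did not pass.

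**Figure D5:**
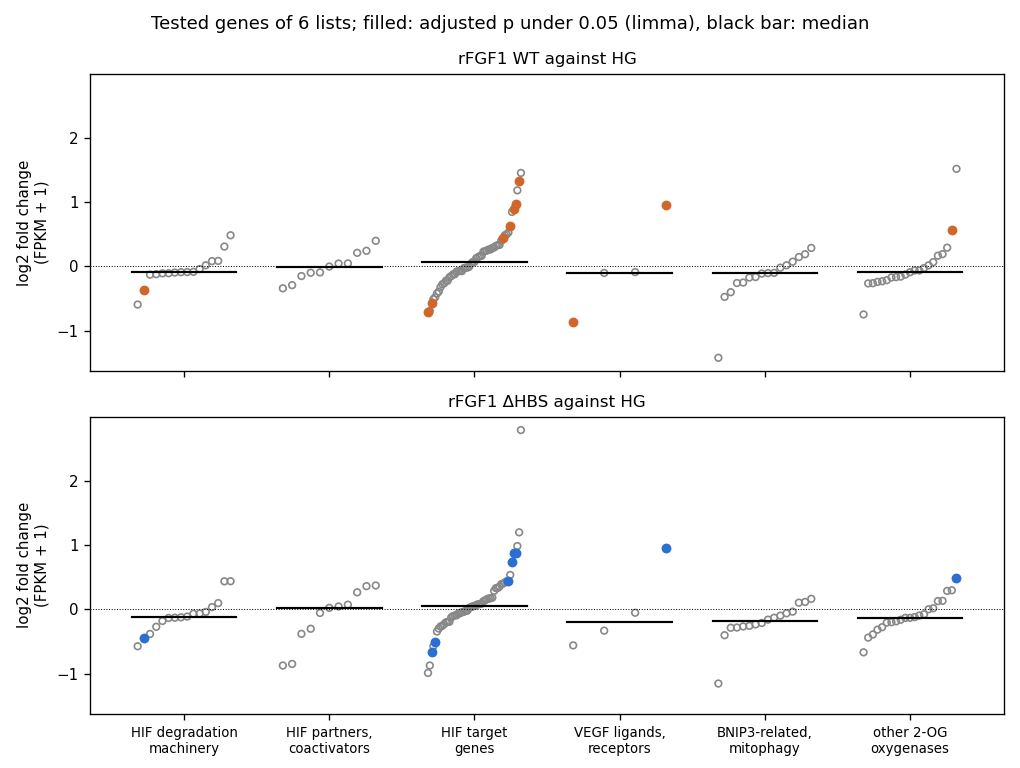
Log2 fold change against HG on the log2(FPKM + 1) scale (vertical axes) of the tested genes of 6 lists (horizontal axis), with rFGF1WT above and rFGF1ΔHBS below; each circle is a gene, filled where the limma adjusted p was under 0.05, and black bars are medians. The filled circles number 7 and 6 of 53 among HIF target genes, lie on both sides of 0 there, and are absent from the HIF partner and mitophagy lists.

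The pathway column of the deposited table offered a further list, used after the values were seen. Of 93 loci that it assigns to the HIF-1 signaling pathway, 75 were tested. With rFGF1WT 7 passed (9.33%, beside 6.19% of all loci) and with rFGF1ΔHBS 6 (8.0%, beside 6.26%). The 7 include Egln1, whose level with rFGF1WT chose the set, so their share is not read against that of all loci. Between the proteins Egln1 alone was past the threshold (1.33%, beside 0.549%), in the contrast that chose it. Beside Egln1, those that passed with rFGF1WT included Egfr (log2 0.45, adjusted p = 0.0343), Prkca (0.46, adjusted p = 0.0272), Nos2 (-0.64, adjusted p = 0.0458) and Angpt4 (-0.90, adjusted p = 0.0399). With rFGF1ΔHBS they included Egfr (0.57, adjusted p = 0.0219), Prkca (0.48, adjusted p = 0.0259), Nos2 (-0.65, adjusted p = 0.0441), Angpt4 (-0.90, adjusted p = 0.0387) and Pik3cd (-0.69, adjusted p = 0.0302).

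Over the 6 hand-made lists, 20 calls of genes against HG were made, and 20 were kept under median-ratio and under quantile scaling. Only 6 of the 20 were kept when the 4 libraries of a comparison were fitted alone, 13 with no filter on low values, and 2 to 5 when 1 library was left out. No direction changed in any of them.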

How the data were processed

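RNA of 6 libraries (3 groups of 2) was sequenced after poly(A) selection. The authors deposited 1 table of FPKM per locus, the only unit used here. The submitters' processing notes name Bowtie 0.12.2, HISAT2 2.0, StringTie 1.3.0 and the build mm8 without giving their roles, and the study's methods name edgeR for the summary. No counts were used, so depth was only estimated. FPKM assigned by assembled locus can pass fragments between neighbouring or overlapping genes. Of 78903 Ensembl transcripts in the table, 99.6% were found in GENCODE M21 (GRCm38), which gave the positions.

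Members were the locus carrying the symbol. The members and all lists were chosen with earlier results of these data known. Loci with a mean of at least 1 FPKM were tested with limma 3.58.1 in R 4.3.3 (log2(FPKM + 1), trend, 3 residual degrees of freedom, all 6 libraries, Benjamini-Hochberg). No count test was run, since FPKM are not counts. Fits were tested on simulated data. Fold changes on the log2(FPKM + 1) scale understate those of low genes. Named genes were all members, up to 6 per list and comparison past adjusted p 0.05 with the largest change, the 2 most abundant per list, and the 5 loci most like Egln1. Alternatives changed the pseudocount, filter, scaling, samples in the fit, variance model, replicate block, call rule and libraries. No column of per-sample values was left out. A few genes that the rule names are not reported here.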

Additional observations from a re-analysis of the deposited data

Results flagged for a closer look

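Results were looked at again where the 2 proteins moved a gene differently against HG. Egln1 was one, by a log2 difference of -0.94 between rFGF1ΔHBS and rFGF1WT. It was chosen for this contrast, so its passing the threshold there is not read as support. Its neighbour Sprtn differed in the opposite direction. Hif1an was the other, by 0.65, since both rFGF1WT libraries were below and both rFGF1ΔHBS libraries above the HG libraries. The limma test of that difference did not pass (adjusted p = 0.905). Single outlying libraries were not searched for, because each group has 2.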

How the results depend on the processing

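Shares of all loci passing are given for the main fit only. Counts under the alternatives are therefore not read as particular to the members. The number of members past the threshold with rFGF1WT against HG was 2. It was 1 under each of 7 alternatives (no filter, scaling by median ratios, quantiles, a fit of 4 libraries alone, robust variances, variances without a trend, a 2-fold limit), 0 with the replicate block, and 0 to 1 when a library was left out. With rFGF1ΔHBS it was 0, and 1 (Bnip3) with a mean FPKM of at least 5 (adjusted p = 0.0449) or with loci above 0 throughout (adjusted p = 0.0495). Between the proteins it was 1 (Egln1), and 0 in the fit of 4 libraries, with the replicate block or a 2-fold limit, and 0 to 1 with a library left out. The contrast between the proteins chose Egln1, so nothing is read from that count. The 2-fold limit was applied on the log2(FPKM + 1) scale. The Egln1 difference between the proteins was -1.01 with a pseudocount of 0.1, and -0.99 to -0.90 over the leave-outs. Replicate numbers were shared by the groups, but no label says whether they pair the libraries. Correlations of deviations between same-numbered libraries were -0.0467 to 0.0980, which cannot settle whether they were paired. With the replicate block the adjusted p of Egln1 with rFGF1WT was 0.0521 and that of Bnip3 0.104, and 0 of the 20 calls of list genes were kept.

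Small changes turned sign. With rFGF1WT, Hif1a was 0.015 under median-ratio scaling and -0.053 to 0.0034 over the leave-outs, and Egln3 was -0.042 to 0.16. With rFGF1ΔHBS, Vegfa was -0.14 to 0.22 and Sprtn -0.016 to 0.034. Between the proteins, Arnt was -0.00324 with median ratios, -0.000263 with quantiles and -0.094 to 0.10 over the leave-outs, Hif1a -0.041 to 0.018, Vhl -0.017 to 0.039 and Bnip3 -0.059 to 0.081. The cause of these changes was not tested. Fragments were estimated for the 3 members in single-transcript loci only, Epas1 having the fewest of these.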
